A study of Mus musculus with 21 samples.

Results

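The genes described here are 10 enteroendocrine hormone and granin genes, measured in cells sorted from mouse small intestine. They are Chga and Chgb, which encode the granins chromogranin A and chromogranin B, and Sst, Nts, Cck, Gip, Gcg, Pyy, Tac1 and Sct, which encode peptide hormones and neuropeptides. Every probe set of the arrays whose only gene symbol was one of these was taken, which gave 11 of 45101 probe sets. Tac1 had an additional probe set, and the other genes had 1 each. All 10 genes were among the 11854 genes that passed the filter on low signals.

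The arrays came from cells carrying TdTomato, a red fluorescent protein, which by the labels were Mist1-positive. Mist1 is a transcription factor of secretory cells. Cells were parted by flow cytometry into a fraction with low CD24 (CD24lo) and a fraction with high CD24 (CD24hi), CD24 being a surface protein. Each fraction was taken from untreated mice, from mice with Lgr5-expressing cells ablated (titled DT), from mice irradiated with 10 Gy, from mice treated with the DNA-damaging drug doxorubicin, and from mice expressing NICD, which the labels do not spell out. Each of these 10 groups had 2 arrays, and whole intestine had 1 array and entered no test. What all sorted groups shared was the TdTomato mark, and the labels state neither the driver of TdTomato or NICD, nor age, strain, time after treatment or pooling of animals. No group given DT without ablation was among the samples. The labels do not say whether arrays of 1 group stand for different animals, and p-values measure only the spread between these samples, which may be technical.

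Enteroendocrine cells are scattered epithelial cells that store peptide hormones in dense-core granules and release them in response to food, microbial products and nerve signals. Granins help to form these granules, and each hormone is cut from a longer precursor. Different enteroendocrine cells make different sets of hormones: somatostatin is the product of D cells, glucose-dependent insulinotropic peptide of K cells, cholecystokinin of I cells, secretin of S cells, glucagon-like peptides and peptide YY of L cells, neurotensin of N cells, and substance P, encoded by Tac1, is made by many serotonin-producing enterochromaffin cells. The arrays measured RNA of sorted cells in bulk, so fewer cells of a type and less RNA per cell cannot be told apart.

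Promoter sequence is shown for Sst and Nts, whose RNA differed between the fractions in opposite directions, and for Chgb, which shared a motif with Sst. The sequences are the 250 bases before the transcription start listed by RefSeq on GRCm38.p6, and the deposited table itself gave no coordinates. They cover chr16:23890845-23891094 on the minus strand for Sst, chr2:132781392-132781641 on the plus strand for Chgb, and chr10:102490419-102490668 on the minus strand for Nts. Capitals mark TGACGTCA, the palindromic cAMP response element, which was searched on both strands.
Sst: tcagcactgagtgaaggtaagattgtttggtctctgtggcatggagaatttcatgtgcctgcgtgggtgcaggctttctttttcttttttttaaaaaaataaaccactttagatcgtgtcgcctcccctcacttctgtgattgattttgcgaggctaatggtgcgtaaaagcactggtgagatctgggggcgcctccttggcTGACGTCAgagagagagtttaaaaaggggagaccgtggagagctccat
Chgb: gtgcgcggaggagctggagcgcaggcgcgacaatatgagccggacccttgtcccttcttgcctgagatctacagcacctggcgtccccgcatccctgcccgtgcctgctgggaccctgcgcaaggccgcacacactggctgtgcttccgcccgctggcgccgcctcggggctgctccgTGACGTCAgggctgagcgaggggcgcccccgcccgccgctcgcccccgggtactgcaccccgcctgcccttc
Nts: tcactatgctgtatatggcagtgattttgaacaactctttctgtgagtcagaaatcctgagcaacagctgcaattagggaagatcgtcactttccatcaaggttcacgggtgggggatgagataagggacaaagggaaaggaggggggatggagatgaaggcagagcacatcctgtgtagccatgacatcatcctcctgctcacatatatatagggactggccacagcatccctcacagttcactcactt
The Sst window lies inside the annotated gene, chr16:23889573-23891342, whose span begins further upstream, so the Sst start used here is the one listed with the window. The element began 48 bases before the start of Sst and 72 bases before that of Chgb, and it was in neither the Nts window nor those of the other members. Of 32851 mouse promoters of the same length, 508 held it, or 1.55%. CAGATG, an E-box of the kind that basic helix-loop-helix factors can bind, was in the windows of Gcg, Tac1, Sct and Cck and in 14.4% of all promoters. TATAAA was in those of Gcg and Sct and in 12.4% of all promoters. These matches describe letters in the windows and no binding was measured.

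Signals were scaled by the authors to the same trimmed mean on every array, and each sorted array had a median signal between 101 and 158. Lgr5, the gene whose cells were ablated, read 332 and 463 in untreated CD24lo cells and 76.4 and 237 after ablation, and 1962 and 2841 against 788 and 1140 in CD24hi cells. A pair of arrays stood apart in ways that touch the hormone genes. Replicate 1 of Lgr5-ablated CD24hi cells had a summed signal of 48128 over the 10 genes against 17777 in replicate 2. Replicate 2 of NICD CD24hi cells had the highest signal of the added control CreX-3, 59464, and the lowest ratio of the 3′ to the 5′ actin probe set, 1.03, among the sorted arrays.

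**Figure D1:**
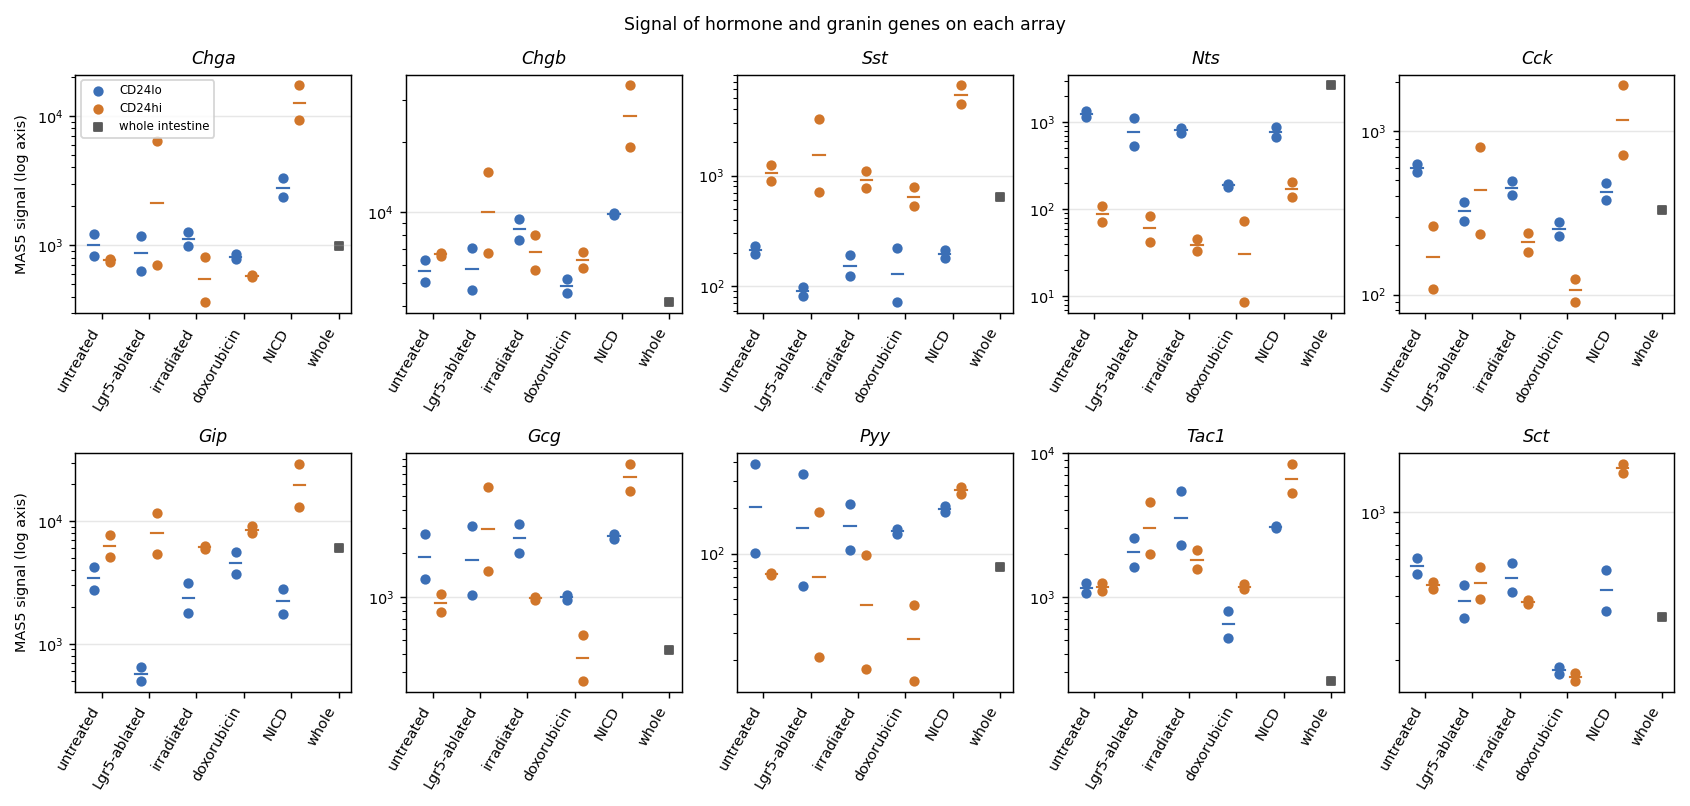
MAS5 signal (log axis) of each gene on every array, by condition, with CD24lo in blue, CD24hi in orange, whole intestine as a grey square and bars at the group means of log2(signal + 16). Sst in the 10 CD24hi arrays sits between 528 and 6507, above all 10 CD24lo arrays, and 9 of the 10 genes have their highest group mean in CD24hi cells with NICD.

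Somatostatin RNA marked the CD24hi fraction and neurotensin RNA the CD24lo fraction, and both differences were present in each of the 5 conditions. Gip RNA was also higher in CD24hi cells. Averaged over conditions, 4 genes were higher in CD24hi cells (Sst, Gip, Chgb and Sct) and 2 were lower (Nts and Pyy), at a limma p adjusted by the Benjamini-Hochberg method under 0.05. Of all genes tested, 27.4% were higher and 19.2% were lower in this comparison, and the members' shares are to be read against these. Differences are given on the log2(signal + 16) scale with their standard errors, and fold changes on that scale understate the change of weak genes.

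Somatostatin inhibits the release of other gut hormones and of gastric acid. In CD24lo cells Sst read 194 and 230 untreated, 99.2 and 82.5 after Lgr5 ablation, 123 and 191 after irradiation, 221 and 71.5 after doxorubicin, and 180 and 211 with NICD. In CD24hi cells it read 895 and 1249 untreated, 3264 and 708 after Lgr5 ablation, 1087 and 778 after irradiation, 785 and 528 after doxorubicin, and 4439 and 6507 with NICD. All 10 CD24hi arrays lay above all 10 CD24lo arrays. Sst was above the array median on 16 of 20 sorted arrays, and the others were CD24lo arrays. The mean difference was 3.09 ± 0.24 (SE, 10 arrays a fraction), 8.49-fold, with a limma adjusted p of 2.29e-08. By condition the difference was 2.24 ± 0.53 untreated, 3.85 ± 0.53 after Lgr5 ablation, 2.46 ± 0.53 after irradiation, 2.20 ± 0.53 after doxorubicin and 4.68 ± 0.53 with NICD, each past the threshold. Leaving out single arrays lost the untreated, irradiated and doxorubicin calls in 2 cases each. The adjusted p then reached 0.0768 untreated (without CD24lo replicate 1 or CD24hi replicate 2), 0.0598 irradiated (without replicate 1 of either fraction) and 0.102 with doxorubicin (without CD24lo replicate 2 or CD24hi replicate 1).

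Neurotensin is released after fat intake and slows gut transit. In CD24lo cells Nts read 1354 and 1142 untreated, 1108 and 537 after Lgr5 ablation, 755 and 864 after irradiation, 182 and 193 after doxorubicin, and 676 and 891 with NICD. In CD24hi cells it read 71.3 and 109 untreated, 41.7 and 84.8 after Lgr5 ablation, 45.8 and 33.3 after irradiation, 73.9 and 8.53 after doxorubicin, and 204 and 140 with NICD. The fractions did not overlap within any condition, although the higher NICD array of CD24hi cells exceeded both doxorubicin arrays of CD24lo cells. CD24hi cells were lower by a log2 difference of -3.02 ± 0.21 (SE), 8.08-fold, with a limma adjusted p of 8.71e-09. The difference passed the threshold in each condition and was between -3.90 after irradiation and -2.10 with NICD. It did not pass with NICD when replicate 2 of either fraction was left out (adjusted p up to 0.0777), nor with doxorubicin without CD24hi replicate 2 (0.0777). Within an array, the log2 signal of Sst minus that of Nts ran from -3.29 to 0.26 in CD24lo cells and from 2.84 to 5.83 in CD24hi cells. The size of this quantity depends on the probes, and only its shift between arrays can be read.

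Gip encodes the incretin that raises insulin release after a meal. In CD24lo cells it read 2757 and 4228 untreated, 642 and 500 after Lgr5 ablation, 3159 and 1785 after irradiation, 3687 and 5596 after doxorubicin, and 2789 and 1760 with NICD. In CD24hi cells it read 5110 and 7789 untreated, 11671 and 5441 after Lgr5 ablation, 6295 and 5974 after irradiation, 9087 and 8043 after doxorubicin, and 13009 and 29460 with NICD. The CD24hi arrays were the higher ones in every condition. The mean difference was 2.01 ± 0.18 (SE), 4.04-fold, with a limma adjusted p of 1.48e-07. It passed the threshold after Lgr5 ablation (3.78 ± 0.40), after irradiation (1.36 ± 0.40) and with NICD (3.13 ± 0.40), and was 0.88 ± 0.40 untreated (adjusted p = 0.166) and 0.91 ± 0.40 after doxorubicin (0.105). The irradiated difference was lost without CD24lo replicate 2 or without either CD24hi array, with an adjusted p up to 0.238.

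The remaining average differences were smaller, and those of Chgb and Sct leaned on NICD. Chgb was higher in CD24hi cells by 0.49 ± 0.14 (limma adjusted p = 0.00924), and without NICD by 0.27, with an adjusted p of 0.18. Sct, for secretin, was higher by 0.28 ± 0.11 with an adjusted p that rounds to 0.05, and without NICD it was lower, at -0.12. Of 34 alternative fits 10 kept that call. It was lost in 15 of 20 fits that left out an array, with an adjusted p of up to 0.119, and with a pseudocount of 1, without the filter (0.0759), with quantiles equalised (0.0854) or arrays centred on their 75th percentile (0.113), and with all kept probe sets, robust moderation and without Lgr5-ablated (0.0818). With an array left out it was kept without CD24lo untreated replicate 2, CD24lo Lgr5-ablated replicate 1, CD24hi Lgr5-ablated replicate 2, CD24lo irradiated replicate 1 and CD24lo NICD replicate 1. Pyy, for an appetite-lowering peptide of the distal gut, was lower by -1.02 ± 0.36 (0.027). In all conditions but NICD, where the difference was 0.39, Pyy was lower in CD24hi cells. Its signals were weak, above the array median on 10 of 20 sorted arrays, and 6 single arrays left out took the adjusted p to as much as 0.0667. Those were CD24lo untreated replicate 2, CD24lo Lgr5-ablated replicate 1, CD24hi Lgr5-ablated replicate 2, replicate 1 of both irradiated fractions and CD24hi doxorubicin replicate 1. Chga, Cck, Gcg and Tac1 did not pass, at 0.31, -0.42, -0.34 and 0.32. Cck and Gcg passed as lower in CD24hi cells when NICD was left out of the average, at -0.87 (adjusted p = 0.00771) and -0.76 (0.0305).

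**Figure D2:**
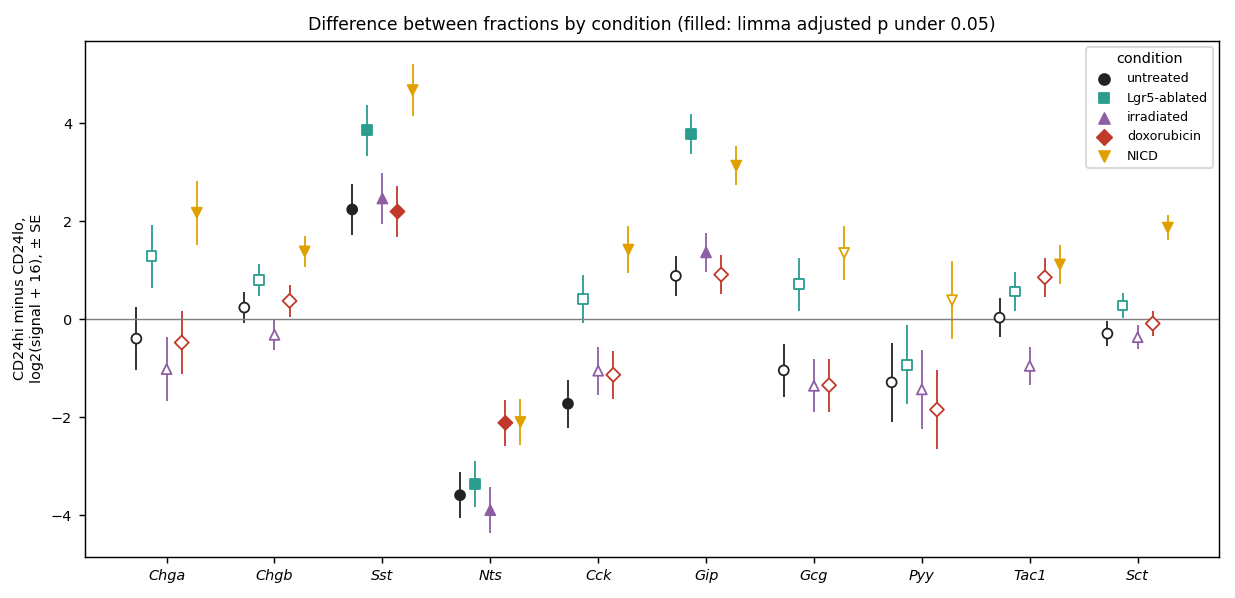
Difference CD24hi minus CD24lo in log2(signal + 16) for each gene and condition, with bars of 1 SE and filled symbols where the limma adjusted p was under 0.05. Sst lies above 0 and Nts below 0 in all 5 conditions, while Chga, Cck, Gcg, Pyy and Sct are above 0 with NICD and below 0 untreated.

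Condition by condition, 3 of 10 genes differed between the fractions in untreated mice, with Sst higher and Nts and Cck lower in CD24hi cells. Of all genes 7.51% were higher and 6.87% lower there. Cck, whose product releases bile and pancreatic enzymes, read 630 and 567 in untreated CD24lo cells and 262 and 108 in untreated CD24hi cells. The CD24lo arrays were the higher ones, and the difference of -1.73 ± 0.49 had a limma adjusted p of 0.0244. It was lost without either CD24lo array or without CD24hi replicate 2, with an adjusted p up to 0.243. After Lgr5 ablation Sst and Gip were higher and Nts lower, against 4.15% and 2.83% of all genes. After irradiation the same 3 genes were called in the same directions, against 7.53% and 8.23%. After doxorubicin Sst was higher and Nts lower, against 17.4% and 10.9%.

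With NICD, 7 genes were higher in CD24hi cells and Nts was lower, against 13.6% and 10.5% of all genes. The 7 were Chga, Chgb, Sst, Cck, Gip, Tac1 and Sct. Sct showed 1522 and 1689 in CD24hi and 531 and 343 in CD24lo cells, and its difference was 1.87 ± 0.25 (limma adjusted p = 0.000139). Tac1 showed 8441 and 5251 against 3011 and 3113, and its difference was 1.12 ± 0.39 (0.0486), a call kept by 5 of 16 alternative fits. The arrays of the fractions did not overlap for any of the 10 genes. This was not particular to NICD, as 9 of 10 did not overlap untreated, after irradiation and after doxorubicin. The share of all genes that did not overlap was not counted, so these counts are not a result about the 10 genes. Calls of Cck, Chga, Chgb and Tac1 in this comparison were lost when single NICD arrays were left out, with adjusted p up to 0.473, 0.224, 0.125 and 0.222. The arrays concerned were both CD24lo replicates and CD24hi replicate 2 for Cck and Chga, replicate 2 of either fraction for Chgb, and any of the 4 for Tac1. The Tac1 call was also lost with a pseudocount of 1, quantile normalization, no filter, averaged probe sets, no trend and robust moderation, with an adjusted p of up to 0.0748. The Cck call was lost with a pseudocount of 1, no filter and no trend, at up to 0.0632, and the Chga call with robust moderation, at 0.0507.

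The broadest change from untreated mice was that of NICD in CD24hi cells, where 8 of 10 genes rose and none fell, against 4.7% of all genes higher and 1.86% lower. The median change of the 10 genes was 2.14, beside 0.01 for all genes tested. All comparisons with untreated mice within a fraction share the same 2 control arrays.

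Chga rose from 783 and 745 to 9279 and 17227, so that both NICD arrays lay far above both untreated ones. The change was 4.02 ± 0.65 (SE, 2 arrays a group), 16.2-fold, with a limma adjusted p of 0.00155. Chgb rose from 6728 and 6527 to 18921 and 34701, by 1.95 ± 0.32 (0.00171). Tac1 rose from 1254 and 1105 to 8441 and 5251, by 2.48 ± 0.39 (0.00139). Sct rose from 470 and 434 to 1522 and 1689, by 1.79 ± 0.25 (0.000522). None of these 4 calls was lost when a single array was left out.

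Gcg, which encodes the precursor of glucagon and the glucagon-like peptides, rose from 1050 and 784 to 5381 and 8296, by 2.86 ± 0.54 (limma adjusted p = 0.00435). Cck rose from 262 and 108 to 714 and 1913, by 2.68 ± 0.49 (0.00335). Sst rose by 2.33 ± 0.53 (0.0136) and Gip by 1.63 ± 0.40 (0.0224), from the signals given above. The groups did not overlap for any of these genes. As the share of all genes without overlap was not counted, this is not a result about the members. Each of the 4 was lost without replicate 2 of the untreated or replicate 2 of the NICD CD24hi arrays, and Sst and Gip also without replicate 1 of the untreated arrays. The highest adjusted p then was 0.0709 for Gcg, 0.0829 for Cck, 0.162 for Sst and 0.348 for Gip. Pyy, at 74.2 and 72.8 untreated and 275 and 247 with NICD, had a change of 1.63 ± 0.80 (0.224), and Nts one of 0.83 ± 0.47 (0.295).

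In CD24lo cells NICD raised Tac1, from 1064 and 1248 to 3011 and 3113, by 1.40 ± 0.39 (limma adjusted p = 0.0302). The other 9 genes did not pass, against 6.7% of all genes higher and 7.72% lower. The Tac1 call was lost without any of the 4 arrays compared, with an adjusted p up to 0.274. Chga read 3289 and 2366 with NICD against 831 and 1229 untreated, without overlap, and had a change of 1.45 ± 0.65 (0.131). The change with NICD was larger in CD24hi than in CD24lo cells for 3 genes, tested as the difference between the changes, against 1.64% of all genes higher and 1.01% lower. The difference was 3.15 ± 0.69 for Cck (0.0381), 2.25 ± 0.57 for Gip (0.0485) and 2.16 ± 0.35 for Sct (0.0122). All 10 genes had a positive difference, and the other 7 did not pass. Each of the 3 calls depended on single arrays, as the calls of Cck and Gip were lost in 6 of 8 fits without an array of these groups and that of Sct in 4 of 8. The adjusted p reached 0.207 for Cck, 0.267 for Gip and 0.101 for Sct. The arrays whose absence ended all 3 calls were both untreated CD24hi arrays and replicate 2 of each NICD fraction, and for Cck and Gip also both untreated CD24lo arrays. Of 20 alternative fits 5 kept the Gip call, 11 the Cck call and 16 the Sct call. The Gip call was also lost with a pseudocount of 1, quantile normalization, no filter, averaged probe sets, all kept probe sets, no trend, robust moderation and the compared groups alone, with an adjusted p of up to 0.103, and the Cck call with no filter, no trend and the compared groups alone, at up to 0.0594. With the replicate number as a block, the Gip difference had an adjusted p of 0.056, and the Tac1 difference between fractions with NICD one of 0.0525.

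**Figure D3:**
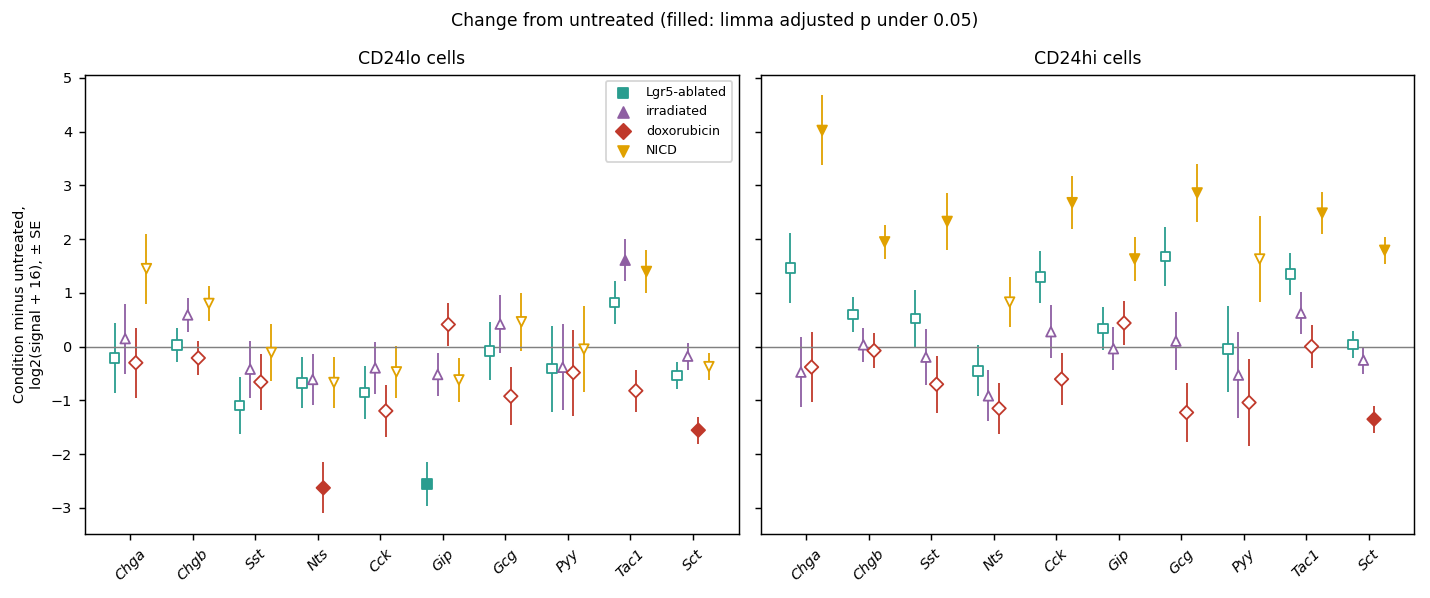
Change from untreated in log2(signal + 16) for each gene in CD24lo (left) and CD24hi cells (right), with bars of 1 SE and filled symbols where the limma adjusted p was under 0.05. In CD24hi cells the NICD symbols are filled for 8 genes, and in CD24lo cells filled symbols mark Gip after Lgr5 ablation, Nts and Sct after doxorubicin, and Tac1 after irradiation and with NICD.

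Lgr5 ablation lowered Gip in CD24lo cells, from 2757 and 4228 to 642 and 500. Both ablated arrays were the lowest Gip signals of the series, and the change of -2.56 ± 0.40 (SE), 5.89-fold, had a limma adjusted p of 0.0109. It was the sole member called, against 0.0928% of all genes higher and 0.143% lower. The call was lost without replicate 2 of the untreated or replicate 2 of the ablated CD24lo arrays, with an adjusted p up to 0.125. In CD24hi cells Gip changed by 0.34 ± 0.40 (0.895). The difference between the fractions in this change was 2.89 ± 0.57 and did not pass (0.173), and with quantile normalization it did, at 2.87 (0.0443). No other member passed for that difference, against 0.0169% of all genes called higher. Unadjusted limma p under 0.05 was found for 4 members, a count to which this share does not apply. The share of all genes under that unadjusted p is not given, and nothing is read from the count.

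In Lgr5-ablated CD24hi cells limma called 0 members, while 0.574% of all genes were called higher and 0.278% lower. An unadjusted limma p under 0.05 was found for 4 members, a count to which these shares do not apply. The share of all genes under that unadjusted p is not given, so the count is not a result about the members. The arrays of this group disagreed. Chga read 6381 in replicate 1 and 705 in replicate 2, and Gcg 5707 and 1499. Tac1 read 4605 and 1986. Without replicate 2, Chga (3.04), Cck (2.14), Gcg (2.63) and Tac1 (1.95) passed, with adjusted p between 0.00236 and 0.0386. Without replicate 1, the Chga change was -0.11.

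After irradiation Tac1 rose in CD24lo cells, from 1064 and 1248 to 2277 and 5494, by 1.61 ± 0.39 (limma adjusted p = 0.0299). The groups did not overlap, and it was the sole member called, against 1.58% of all genes higher and 2.45% lower. The call was lost without either untreated array or without irradiated replicate 2, with an adjusted p up to 0.258. A second Tac1 probe set stayed below the array median on all 20 sorted arrays, at 14.7 to 141, and gave 0.65 ± 0.43 in the same comparison. In CD24hi cells limma called 0 members after irradiation, while 1.11% of all genes were called higher and 3.33% lower. An unadjusted limma p under 0.05 was found for 0 members.

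Doxorubicin lowered Nts and Sct in CD24lo cells, against 5.47% of all genes higher and 9.27% lower. Nts went from 1354 and 1142 to 182 and 193, far below every other CD24lo array, a change of -2.63 ± 0.47, 6.19-fold, with a limma adjusted p of 0.00296. Sct went from 511 and 609 to 186 and 172, a change of -1.56 ± 0.25 (0.00147). In CD24hi cells Sct also fell, from 470 and 434 to 175 and 160, a change of -1.35 ± 0.25 (0.0119), and it was the sole member called against 0.801% of all genes higher and 0.396% lower. The 4 doxorubicin arrays held the lowest Sct signals of the sorted cells. The CD24hi call was lost without any of the 4 arrays compared, with an adjusted p up to 0.163, and neither CD24lo call was lost without an array. The change in Sct did not differ between the fractions by the test, at 0.20 ± 0.35 (0.903), with a 95% interval of -0.54 to 0.95. For the differences between fractions in the change, limma called 0 members after irradiation and 0 after doxorubicin, against 0.00844% and 0.0337% of all genes called higher. Unadjusted limma p under 0.05 was found for 0 and 1 members, counts to which these shares do not apply. Shares of all genes under that unadjusted p are not given, and nothing is read from the counts.

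Ordered by mean level, CD24hi cells with NICD came first for 9 of the 10 genes, and Nts was highest in untreated CD24lo cells. The gap to the next group exceeded the 95% half-width of a difference between group means for Chga, Chgb, Sst, Gip, Gcg, Tac1 and Sct, and did not for Cck and Pyy. Below that, most neighbours did not differ beyond their spread. For Sst the only other such gap lay between the lowest CD24hi group, doxorubicin, and the highest CD24lo group, untreated, at 1.54 against a half-width of 1.11. For Nts it lay between CD24lo cells after Lgr5 ablation and after doxorubicin, at 1.95 against 0.998. For Gip it set Lgr5-ablated CD24lo cells below all other groups, at 1.94 against 0.85. For Sct the other such gap separated the doxorubicin groups of both fractions from the rest, at 1.01 against 0.53. For Gcg it set doxorubicin CD24hi cells lowest, at 1.23 against 1.15. For Pyy no gap reached the half-width of 1.69. The groups were ordered by these same values and many gaps were read, so the 95% level does not hold for them. These gaps describe the order and are not tests.

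Genes that work with the hormones were followed by lists. A gene could pass the filter through the 2 arrays of the group where it was high. The counts of rising genes may be partly set by this. Of 18 granule and prohormone processing genes, 15 rose with NICD in CD24hi cells and 0 fell, against 4.7% and 1.86% of all genes, with a median change of 2.65. Of the granule genes, 9 were below the median on both untreated CD24hi arrays and 0 on both NICD CD24hi arrays. Snap25, a membrane fusion protein of secretory vesicles, rose by 5.28 ± 0.62 (limma adjusted p = 0.000156), and Resp18, a granule protein, by 4.27 ± 0.64 (0.000852). Of 18 enteroendocrine transcription factor and serotonin genes, 11 rose and 0 fell. In this list 5 genes were below the median on both untreated CD24hi arrays and 0 on both NICD CD24hi arrays. Tph1, the enzyme that starts serotonin synthesis in the gut, rose by 4.07 ± 0.65 (0.00145), and Neurod1, a factor of enteroendocrine differentiation, by 3.11 ± 0.51 (0.00182). In CD24lo cells with NICD, 5 of the granule genes and 7 of the factor and serotonin genes rose, against 6.7% of all genes.

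Among other gut peptide genes 6 of 17 on the array were tested. Cartpt, Ucn3 and Iapp rose with NICD in CD24hi cells, against 4.7% of all genes, Cartpt by 4.68 and Ucn3 by 3.77. Of the 17, 11 were below the median on both NICD CD24hi arrays and 13 on both untreated CD24hi arrays. Of receptors for the member hormones 7 of 21 were tested. Sstr1, Glp1r, Sstr5 and Sstr2 rose, by 4.26, 3.73, 2.25 and 1.85, against the same 4.7%. Of the 21, 16 were below the median on both NICD CD24hi arrays and 18 on both untreated CD24hi arrays. Genes otherwise below the median could enter these tests through the 2 NICD CD24hi arrays. The counts that rose may be partly set by the filter. Sstr1, Sstr2 and Sstr5 are somatostatin receptors and Glp1r is the receptor of glucagon-like peptide 1. Of 8 tested chemical sensors 5 rose, against 4.7% of all genes. Trpa1, an irritant-gated channel of enterochromaffin cells, rose by 4.86 ± 0.61 (limma adjusted p = 0.000243). Between the fractions on average, 11 granule genes were higher in CD24hi cells and 0 lower, and 13 factor and serotonin genes were higher and 2 lower, against 27.4% and 19.2% of all genes. Iapp, for islet amyloid polypeptide, was higher by 3.43 ± 0.18 (3.32e-10), and Neurog3, which starts enteroendocrine differentiation, by 2.00 ± 0.22 (1.70e-06). Sstr2 was lower by -1.07 ± 0.11 (7.97e-07).

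Markers of other cell types moved with these results. As with the lists above, a marker could pass the filter through the 2 arrays of the group where it was high. The counts of rising markers may be partly set by this. With NICD in CD24hi cells all 7 tested tuft cell markers rose, and their summed signal was 11793 and 13459 against 1508 and 2215 untreated. Of 4 tested enteric neuron and glia markers, Nefl, Nefm and Ret rose, and the list summed to 2647 and 3413 against 785 and 799, while Uchl1 read 11.2 and 21.1 and Stmn2 8.54 and 58.7. Of the 12 markers on the array, 8 were below the median on both NICD CD24hi arrays and 10 on both untreated CD24hi arrays. B and plasma cell markers summed to 12042 and 12967 against 3402 and 4199, with 2 of 5 rising, and 3 of 10 enterocyte markers rose, against 4.7% of all genes. Smooth muscle and fibroblast markers summed to 5016 and 5430 against 1077 and 1125, where 1 of 2 tested rose, Vim, by 3.01, while Acta2 of smooth muscle read 77.9 and 128 against 63.6 and 65.6. In CD24lo cells with NICD, where Tac1 rose, T cell markers summed to 4731 and 6004 against 316 and 1062 untreated. Of these markers 3 of 7 rose, against 6.7% of all genes. Enterocyte markers there summed to 33341 and 36169 against 57042 and 65478, with 5 of 10 falling, against 7.72% of all genes. With none of the tested markers called, B and plasma cell markers went to 7599 and 9272 from 2696 and 4981, and smooth muscle and fibroblast markers to 2415 and 2748 from 1150 and 1562. After irradiation in CD24lo cells, where Tac1 also rose, the smooth muscle and fibroblast markers summed to 2566 and 3458, again with 0 of 2 called, and Vim read 1179 and 2430 against 494 and 665. After irradiation in CD24hi cells 4 of 6 pancreas markers rose, against 1.11% of all genes, to sums of 1363 and 2947 from 280 and 362. After doxorubicin in CD24lo cells 5 of 6 pancreas markers rose, against 5.47% of all genes, to 775 and 2702 from 222 and 293. Of the 7 on the array, 1 was below the median on both arrays of each of these groups, against 6 in the untreated groups. Sst and Gcg are also made in pancreatic islets, and whether islet RNA was present was not tested. Neither gene was called in those comparisons, in which Ins2 read 21.9 to 34.5 and 24.4 to 29.1. After doxorubicin in CD24lo cells 4 of 10 enterocyte markers and 4 of 7 T cell markers rose, and 5 of 8 Paneth cell markers fell, against 5.47% of all genes higher and 9.27% lower. Between the fractions, all 10 enterocyte markers were lower and all 7 tuft cell markers and all 10 stem cell markers higher in CD24hi cells, against the shares of all genes given above. The part of any of these in the hormone results was not tested.

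**Figure D4:**
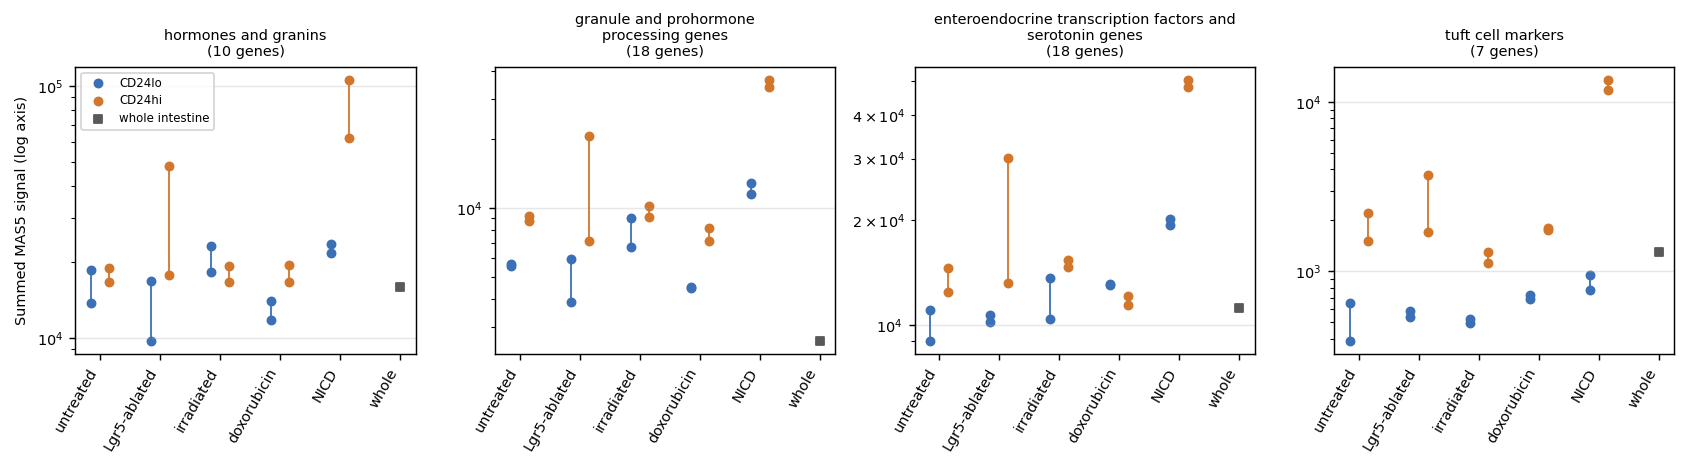
Summed MAS5 signal (log axis) of 4 gene lists on each array by condition, with CD24lo in blue, CD24hi in orange, a line joining the 2 arrays of a group and whole intestine as a grey square. The NICD arrays of CD24hi cells are highest in every panel, and the hormone and granin sum is 62184 and 105432 there against 16698 and 18920 in untreated CD24hi cells.

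The genes whose pattern was most like each member's were found by Pearson correlation over the 20 sorted arrays after the mean of each fraction was subtracted. These values describe arrays that share conditions, and they are given also without the 3 arrays with the highest hormone sums (both NICD CD24hi arrays and Lgr5-ablated CD24hi replicate 1). Chga was most like Tph1, at 0.96 and at 0.93 over the 17 other arrays. Chgb was most like the granule gene Rab3c, at 0.95 and 0.85, and Sst like the transcription factor gene Isl1, at 0.93 and 0.64. Cck and Gcg were both most like the secretagogin gene Scgn, at 0.90 and 0.92, and at 0.66 and 0.76 over 17 arrays. Gip was most like Cacna1h, a calcium channel gene, at 0.91 and 0.89, and Tac1 like Scn3a, a sodium channel gene, at 0.91 and 0.81. Sct was most like Isg20, at 0.91 and 0.90, Pyy like Arc, at 0.85 and 0.65, and Nts like the transcription factor gene Foxa1, at 0.82 and 0.83.

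Among the members, Chga and Chgb were the most alike pair, at 0.95 over 20 arrays and 0.84 over 17. Cck and Sct stood at 0.87 and 0.80, and Nts and Sct at 0.77 and 0.78. The values of Gip with the other members over 20 arrays ran from -0.04 with Nts to 0.56 with Sst. Over 17 arrays they ran from -0.48 with Tac1 to 0.29 with Sst, and 3 of the 9 were above 0 (Sst, Pyy and Chga). Within the CD24hi arrays, which include the 3 left out, they ran from 0.43 with Nts to 0.90 with Chgb. Within the CD24lo arrays they ran from -0.47 with Tac1 to 0.35 with Sst. Sst and Chga fell from 0.87 over 20 arrays to 0.30 over 17.

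In whole intestine Nts read 2640, above all 20 sorted arrays. Chgb (4140) and Tac1 (261) were lower there than on any sorted array, and Gcg (430) was lower than on 19 of 20. Sst (634) lay above every CD24lo array and below 9 of the 10 CD24hi arrays, and Gip (6101), Chga (989), Sct (319), Cck (332) and Pyy (81.7) lay within the range of the sorted arrays. This sample had 1 array and its values have no error.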

How the data were processed

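RNA of 20 sorted samples and 1 whole intestine was amplified from 0.8 ng and hybridised to Affymetrix Mouse Genome 430 2.0 arrays. The authors deposited linear signal intensity for each probe set, computed with MAS5 according to the submitters' processing notes, without a stated version and without detection calls, so weak signals cannot be told from background. The trimmed mean, leaving out 2 percent at each end, was 500 on every array. Signals were taken as log2(signal + 16). Of 45101 probe sets, 34958 carried 1 gene symbol in the platform annotation, 932 several and 9211 none. Those above the array median on at least 2 of 20 arrays were kept, and of several for a gene the brightest on average was used, which left 11854 genes. Means of 10 groups were fitted with limma 3.58.1 in R 4.3.3 (10 residual degrees of freedom, moderated variances following the mean level, two-sided), and p-values were adjusted by the Benjamini-Hochberg method over all genes of each of 18 comparisons at 0.05. In fits with an array removed, its lone partner was taken to have the spread of the remaining groups. The procedure was run on simulated data with independent noise and added changes. Those data held no outlying or paired arrays, so the run does not bear on calls that depend on single arrays. Gene lists were described by counts and medians only, and up to 4 called genes per list and comparison with the largest change were named, along with the genes most correlated with each member. Members and lists were chosen with earlier results of these data known. Whole intestine was left out of the tests. Promoters came from RefSeq tables on GRCm38.p6. Intervals reflect 2 arrays a group.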

Additional observations from a re-analysis of the deposited data

Results flagged for a closer look

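For 3 members the change with NICD differed between the fractions by the test of that difference. The excess of the CD24hi over the CD24lo change was 3.15 for Cck (limma adjusted p = 0.0381), 2.25 for Gip (0.0485) and 2.16 for Sct (0.0122). In CD24lo cells the changes with NICD were -0.47 for Cck, -0.62 for Gip and -0.37 for Sct, and in CD24hi cells 2.68, 1.63 and 1.79. Tuft cell markers rose with NICD in CD24hi cells too, and their part in this was not tested.

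Nts in whole intestine, a sample outside the comparisons, read 2640, above the 4 untreated sorted arrays, the highest of which read 1354. This rests on 1 array.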

How the results depend on the processing

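Of the 180 differences between groups (18 comparisons of 10 genes), 42 passed the threshold as reported. The alternatives were pseudocounts of 1 and 64, another scaling (quantiles, or the 75th percentile of each array), another filter (absent or stricter), averaged probe sets, robust or trend-free moderation, the replicate number as a block, single arrays left out, and fits of the compared groups alone. Averages without Lgr5-ablated, and without both Lgr5-ablated and NICD, were chosen after seeing the data.

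Of the 42 called differences 1 changed sign, that of Sct between the fractions on average, which was -0.12 without NICD and -0.25 without Lgr5-ablated and NICD. Without NICD the Chga average was -0.15, and without Lgr5-ablated and NICD the Chga and Tac1 averages were -0.63 and -0.024. The other sign changes were of uncalled differences. With a pseudocount of 1 the doxorubicin difference between fractions was 0.029 for Sst, and with 64 the irradiation difference between fractions was 0.021 for Nts and 0.081 for Pyy, and the Lgr5-ablated CD24hi change 0.087 for Pyy. With quantile normalization that doxorubicin difference was 0.12 for Sst and the irradiated CD24hi change -0.0075 for Chgb. With centring on the 75th percentile the untreated fraction difference was -0.047 for Tac1 and the doxorubicin difference between fractions -0.0011 for Gip.

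The number of called members moved by over 1.5 times as follows. Quantile normalization gave 2 for NICD in CD24lo cells (1 as reported) and 1 for the Lgr5-ablation difference between fractions (0). No filter and no trend each gave 1 for the NICD difference between fractions (3), and no trend gave 0 for irradiation in CD24lo cells (1). Fitting the compared groups alone gave 1, 5 and 9 for the fraction differences after Lgr5 ablation (3), irradiation (3) and doxorubicin (2), 0 for Lgr5 ablation and 0 for irradiation in CD24lo cells (1 each) and 3 for NICD in CD24lo cells (1). Beside the losses given in the report, the compared groups alone ended the calls of Sst (adjusted p = 0.0898) and Nts (0.0517) between the fractions after Lgr5 ablation, of Gip with Lgr5 ablation (0.222) and of Tac1 with irradiation (0.0604) in CD24lo cells, and moderation without the trend those of Gip between the irradiated fractions (0.0532) and Tac1 with irradiation (0.0563). The cause was not tested, beyond that these fits use fewer samples or another variance.

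With 1 array left out, the number of called members ran from 1 to 3 for CD24hi against CD24lo, untreated, 3 to 5 for CD24hi against CD24lo, Lgr5-ablated, 1 to 3 for CD24hi against CD24lo, irradiated, 1 to 2 for CD24hi against CD24lo, doxorubicin, 3 to 7 for CD24hi against CD24lo, NICD, 0 to 1 for Lgr5-ablated against untreated, CD24lo, 0 to 1 for irradiated against untreated, CD24lo, 0 to 0 for NICD against untreated, CD24lo, 0 to 4 for Lgr5-ablated against untreated, CD24hi, 0 to 0 for doxorubicin against untreated, CD24hi, 4 to 8 for NICD against untreated, CD24hi, 0 to 2 for Lgr5-ablated effect in CD24hi minus effect in CD24lo, 0 to 7 for NICD effect in CD24hi minus effect in CD24lo.

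With 1 array left out, 48 uncalled differences changed sign. Their lowest and highest values, as log2 differences, follow by comparison. For CD24hi against CD24lo, average of 5 conditions they were Chga -0.0032 to 0.63. For CD24hi against CD24lo, untreated they were Tac1 -0.084 to 0.14. For Lgr5-ablated against untreated, CD24lo they were Chga -0.66 to 0.23, Chgb -0.26 to 0.32, Gcg -0.87 to 0.70, Pyy -1.51 to 0.69. For irradiated against untreated, CD24lo they were Chga -0.13 to 0.42, Gcg -0.094 to 0.93, Pyy -1.28 to 0.51, Sct -0.40 to 0.044. For doxorubicin against untreated, CD24lo they were Sst -1.38 to 0.059, Pyy -1.38 to 0.41. For NICD against untreated, CD24lo they were Sst -0.23 to 0.0043, Gcg -0.050 to 0.97, Pyy -0.94 to 0.85. For Lgr5-ablated effect in CD24hi minus effect in CD24lo they were Chgb -0.014 to 1.14, Nts -0.29 to 0.74, Pyy -0.87 to 1.60, Tac1 -0.069 to 1.14. For irradiated effect in CD24hi minus effect in CD24lo they were Sst -0.063 to 0.51, Gcg -0.83 to 0.20, Pyy -1.04 to 0.75, Sct -0.30 to 0.15. For doxorubicin effect in CD24hi minus effect in CD24lo they were Chga -0.36 to 0.20, Chgb -0.018 to 0.29, Sst -0.76 to 0.68, Gip -0.28 to 0.33, Gcg -0.81 to 0.21, Pyy -1.45 to 0.34. For Lgr5-ablated against untreated, CD24hi they were Chga -0.11 to 3.04, Sst -0.57 to 1.61, Gip -0.21 to 0.89, Pyy -1.28 to 1.19, Sct -0.20 to 0.27. For irradiated against untreated, CD24hi they were Chga -1.05 to 0.097, Chgb -0.22 to 0.28, Sst -0.43 to 0.040, Cck -0.31 to 0.86, Gip -0.34 to 0.26, Gcg -0.11 to 0.31, Pyy -1.42 to 0.36. For doxorubicin against untreated, CD24hi they were Chgb -0.19 to 0.040, Tac1 -0.089 to 0.091. For CD24hi against CD24lo, Lgr5-ablated they were Chga -0.29 to 2.86, Cck -0.43 to 1.26, Gcg -0.25 to 1.67, Pyy -2.16 to 0.31, Tac1 -0.039 to 1.17.

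The difference of replicate 1 from replicate 2 correlated across genes between pairs of groups at -0.41 to 0.385, with 21 of 45 pairs positive. Between the fractions of 1 condition it was 0.34 untreated, 0.385 Lgr5-ablated, 0.068 irradiated, -0.15 with NICD and -0.097 with doxorubicin. Whether fractions with the same number shared mice was not tested. A single block over all conditions cannot model pairing within a condition. With the replicate number as a block, no count of called members moved by over 1.5 times, Tac1 between the fractions with NICD had an adjusted p of 0.0525, and Gip in the NICD difference between fractions 0.056. For arrays the number of samples and the missing detection calls limit the precision, most for Pyy, Nts, Sst and Cck on arrays where they lay below the median signal.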
